A study of Homo sapiens with 6 samples.

Results

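The genes of the eukaryotic translation initiation factors were examined in OVCAR3 cells, an established line of high-grade serous ovarian cancer (HGSOC), after inhibition of CDK12 and CDK13. The members were every locus of the expression table with a gene symbol that begins with EIF1 to EIF6, without the EIF2AK kinases and without names of pseudogenes. The table of 47577 loci held 51 such genes, and 47 of them reached a minimum normalized value of 10 in 3 or more libraries. These 47 did so in all 6 libraries, so none passed through only 1 treatment group. The other 4 were EIF4E1B, EIF1AY and the antisense genes EIF1AX-AS1 and EIF1B-AS1, and they were not tested. PolyA plus RNA came from 3 OVCAR3 cultures that received DMSO, the solvent, and from 3 that received 200 nM THZ531, both for 6 h. All 6 are cultures of this same line, and THZ531 blocks both kinases at once, so that the part of each kinase cannot be told apart. The titles and characteristics name THZ531, whereas the treatment protocol in the labels names THZ1 at the same dose, and the samples are called THZ531 here.

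Translation initiation is the step in which a ribosome finds the start codon of an mRNA. The factor eIF2 brings the initiator tRNA to the small ribosomal subunit and is recharged with GTP by eIF2B, while eIF3 is the large scaffold that holds the small subunit open for mRNA. The eIF4F complex, made of the cap-binding protein eIF4E, the scaffold eIF4G and the RNA helicase eIF4A, recruits the mRNA, after which eIF1, eIF1A and eIF5 check the start codon and eIF5B joins the large subunit. Many tumours, ovarian cancers among them, depend on high eIF4F activity. CDK12 and CDK13 phosphorylate RNA polymerase II and keep it elongating through gene bodies.

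Reads counted on loci numbered 60146046 to 70986130 per DMSO library and 53054048 to 57953296 per THZ531 library. The line was checked against its markers, and KRT7 (mean normalized value in DMSO 130310, SD 3989, n = 3), EPCAM (21222, SD 542) and WT1 (650.3, SD 74.8) were present. PAX8, a lineage factor of these tumours, was 11272 (SD 545) in DMSO and 1241 (SD 121) in THZ531. Of the markers of other cell types, PTPRC (33.6 in DMSO and 24.1 in THZ531) and PECAM1 (63.9 and 59.3) were low, whereas COL1A1 was 995.5 (SD 47.5) in DMSO and 2190 (SD 141) in THZ531. The part of COL1A1-expressing cells in the results was not tested. In cell populations such as these, fewer cells of a type and less RNA per cell cannot be told apart.

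Most initiation factor genes differed by less than 1.5-fold between treatments, and the protein-coding ones that fell further were the scarcer paralogs EIF4G3 and EIF1B, the eIF2B subunit EIF2B4 and EIF5. The term regulated stands for a change of 1.5-fold or more with an unadjusted p of 0.05 or less (limma on log2 values, all 17568 loci past the minimum). By this rule 7 of the 47 members were regulated (14.9%), against 39.5% of all loci tested. Higher in THZ531 were 2 members, EIF3A and EIF5A (all loci 15.7%), under the deposited scaling and no longer when libraries were set to the same total or to RPL34. Lower were 5 members, EIF3J-DT, EIF4G3, EIF2B4, EIF5 and EIF1B (all loci 23.9%). The members are abundant, and among the 6862 loci with a mean value of at least 1000 the share regulated was 25.5%, against 6 of the 44 members at that level (13.6%).

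At an adjusted p of at most 0.05 (limma, Benjamini-Hochberg) and any size of difference, 41 members were called, 32 of them higher and 9 lower in THZ531 under the deposited scaling. The share over all loci was 68.6%, with 34.6% higher and 34.1% lower, and over the abundant loci it was 83.1%, with 55.1% higher. The 6 members that did not pass were EIF2B2, EIF2B3, EIF2S2, EIF2S3B, EIF4A2 and EIF4E3. The values of both groups did not overlap for 41 members (31 higher, 10 lower), against 71.7% of all loci (36.0% higher, 35.7% lower) and 84.4% of the abundant ones (55.7% higher, 28.7% lower). The median log2 difference, THZ531 minus DMSO, was 0.18 for the members, -0.01 for all loci and 0.18 for the abundant loci.

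**Figure D1:**
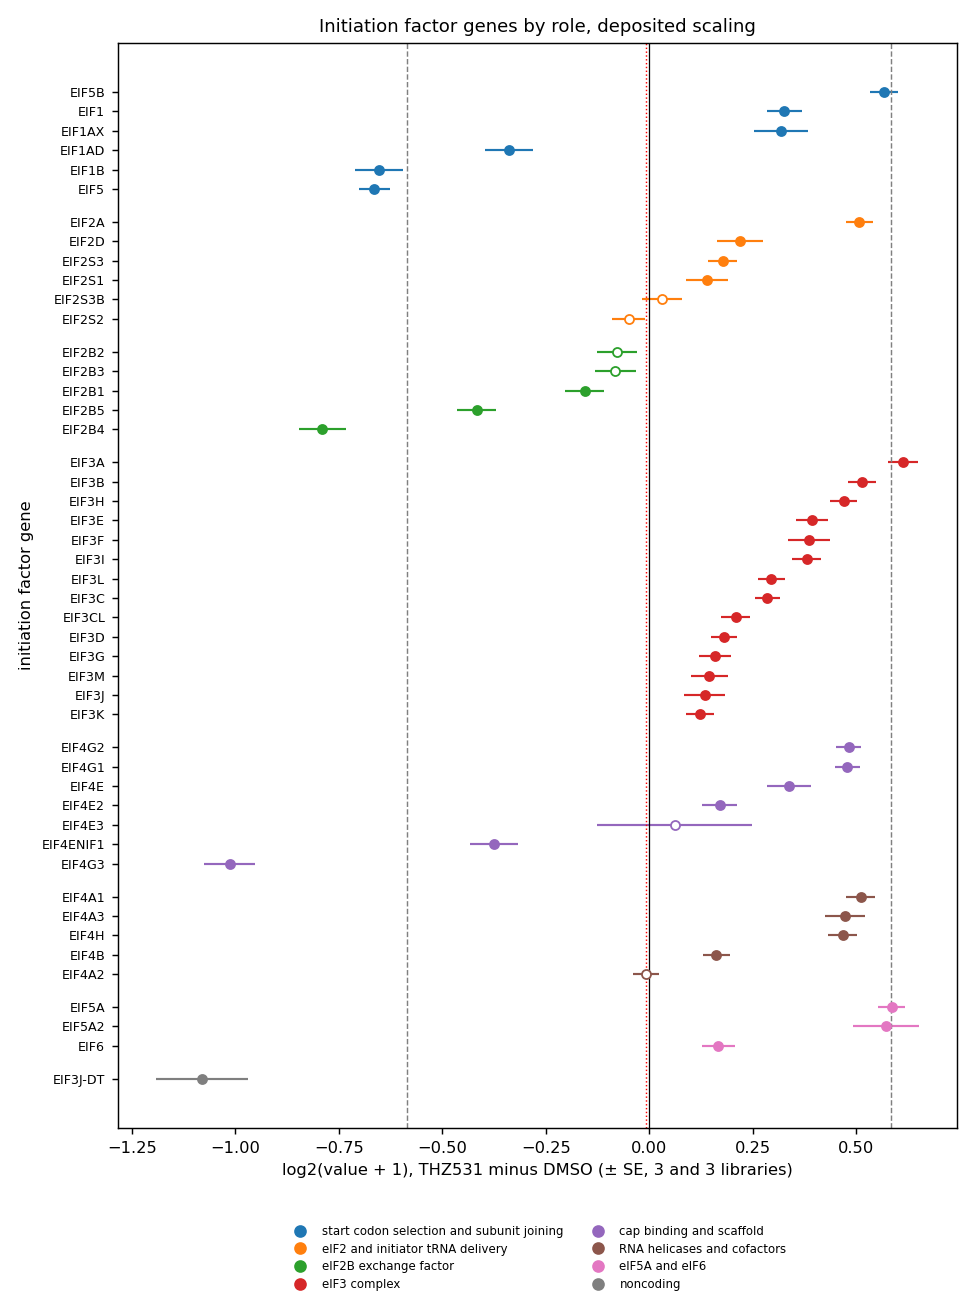
Log2 difference between THZ531 and DMSO for the 47 initiation factor genes, grouped and coloured by role; the horizontal axis is the difference of log2(value + 1) under the deposited scaling, bars are standard errors over 3 and 3 libraries, filled points passed an adjusted p of at most 0.05 and open points did not. Dashed lines mark 1.5-fold, the dotted red line the median of all loci (-0.01). The 14 eIF3 genes lie right of 0 and the 5 eIF2B genes left of it; when libraries were scaled to RPL34, 12 of the eIF3 genes lay left of 0.

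The direction of small differences depended on how the libraries were scaled. The deposited values sum to 55389676 to 56639224 per DMSO library and to 65875609 to 66820371 per THZ531 library. Setting all libraries to the same total moved every log2 difference by -0.24, scaling to the upper quartile moved it by -0.02, and scaling to RPL34, the transcript used as the reference of the study's qPCR assays, moved it by -0.49. The median of the members was then -0.07, 0.16 and -0.32. With the same total, 15 members passed as higher and 17 as lower, and with RPL34 none passed as higher and 28 as lower (limma, adjusted p of at most 0.05; with RPL34 the 7 members above 0 had adjusted p between 0.205 and 0.886). Over all loci, 68.6% passed in either direction with the same total and 67.9% with RPL34. Each of these scalings moves all loci by about the same step, and all 3 steps are downward. A gene below 0 under the deposited scaling therefore had to stay below it, and the distance of a gene from the median of all loci could not change, so neither is a sign of stability. Under the deposited scaling the median of the members lay 0.18 above that of all loci, with 34 of 47 members above it, and 0.002 above that of the abundant loci, with 24 members above and 23 below. The direction of the members in absolute amounts was not tested.

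**Figure D2:**
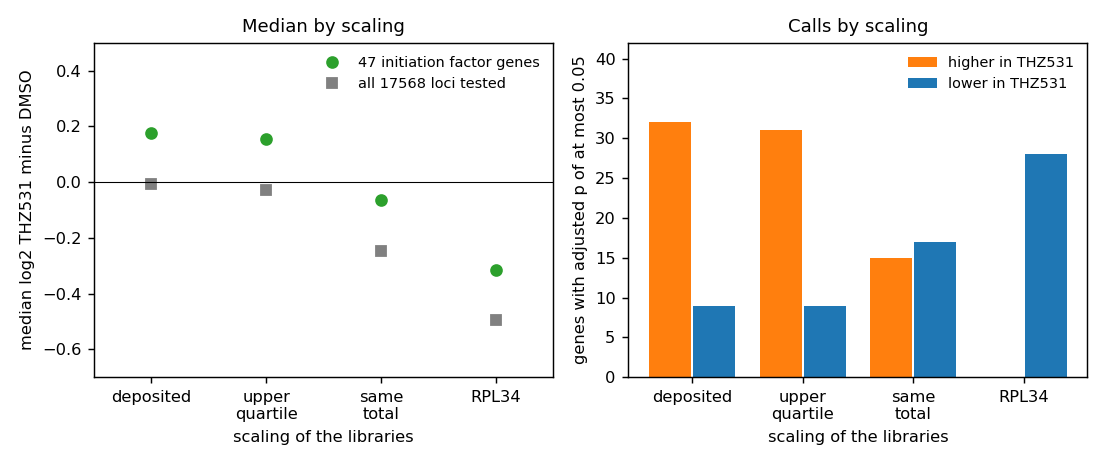
Effect of the scaling of the libraries. Left, the median log2 difference (THZ531 minus DMSO) of the 47 initiation factor genes (circles) and of all loci tested (squares) under the deposited, upper quartile, same total and RPL34 scaling; right, the number of initiation factor genes past the adjusted p of 0.05 that were higher (orange) or lower (blue). Circles and squares move together because each scaling shifts all loci alike, while the calls go from 32 higher and 9 lower to none higher and 28 lower. Of all loci, 68.6% passed in either direction under the deposited scaling and 67.9% with RPL34.

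The cap-binding and scaffold genes diverged most among themselves. EIF4G1 encodes the main scaffold of eIF4F and had the highest level per length of this group, 13152 ± 132 per kb of exon in DMSO (SD, n = 3). Its normalized values were 113782, 115903 and 115641 in DMSO and 160483, 160216 and 160301 in THZ531. EIF4G3, a paralog of EIF4G1 that can replace it as a scaffold, had values of 2086, 2081 and 2234 in DMSO and 1016, 1026 and 1130 in THZ531. Every THZ531 value of EIF4G3 lay below every DMSO value, whereas EIF4G1 had higher values in THZ531 in all libraries. The log2 difference of EIF4G3 was -1.01 ± 0.06 (SE), a 2.02-fold fall (limma, adjusted p = 6.6e-10). For EIF4G1 the log2 difference was 0.48 ± 0.03 (1.39-fold, limma, adjusted p = 9.2e-10), and with RPL34 scaling it was -0.02.

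The other genes of this group moved less. EIF4G2, which encodes a scaffold without the eIF4E-binding region, had a log2 difference of 0.48, and -0.01 with RPL34 scaling. EIF4E, the cap-binding protein itself, differed by 0.34 and its paralog EIF4E2 by 0.17, and both were below 0 with RPL34 scaling (-0.16 and -0.32). EIF4E3, the scarcest member tested with a mean of 110.1 in DMSO, did not pass (0.06 ± 0.19, SE). EIF4ENIF1, which encodes a carrier of eIF4E into the nucleus, fell by 0.38 on the log2 scale without reaching 1.5-fold, and by 0.62 and 0.87 with the same total and RPL34 scaling.

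EIF4G3 spans chr1:20806292-21176897 on the minus strand of hg38, and its canonical transcript in GENCODE v44, with 37 exons, covers 370419 bases, the longest of the members. The next longest, EIF2B3, covers 136074 bases and did not pass the test (-0.08 ± 0.05, SE). The other 3 protein-coding members that were regulated and lower were short. EIF1B covers 2718 bases, EIF2B4 5987 and EIF5 10789. Across the 46 protein-coding members, Spearman's rho between the log2 difference and the length of the canonical transcript's span was 0.15 (0.23 without EIF4G3), and across 13456 protein-coding loci it was -0.05. These correlations are across genes that share the same 6 libraries and are given as a description.

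**Figure D3:**
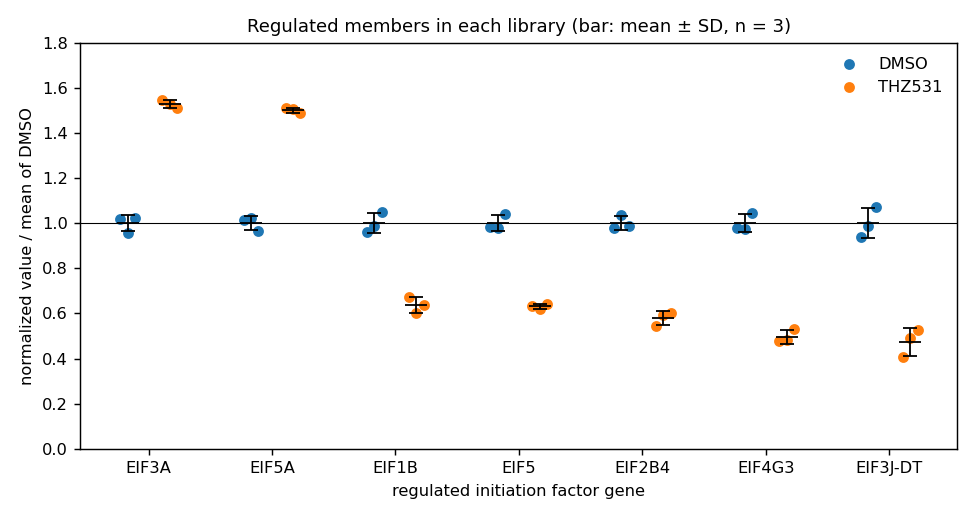
Normalized value of the 7 regulated initiation factor genes in each library, divided by the mean of the DMSO libraries; points are single libraries (blue DMSO, orange THZ531) and bars the mean and SD, n = 3. No group overlaps the other. The 5 genes on the right lie at 0.474 to 0.636 of DMSO, whereas EIF3A and EIF5A were above 1.5-fold under the deposited scaling and not with the same total or RPL34.

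The genes that select the start codon went both ways. EIF5 encodes the activator of GTP hydrolysis by eIF2, which acts once the start codon is paired. Its values were 13097, 13008 and 13853 in DMSO and 8421, 8256 and 8537 in THZ531, so every THZ531 library was below every DMSO library. The log2 difference was -0.66 ± 0.04 (SE), a 1.58-fold fall (limma, adjusted p = 2.5e-10). EIF1B, a near-identical paralog of the start codon fidelity factor EIF1, had 2469, 2542 and 2698 in DMSO and 1731, 1543 and 1634 in THZ531. That was a fall of 1.57-fold (log2 -0.65 ± 0.06, SE; limma, adjusted p = 5.1e-08). EIF1 itself, the member of this group with the highest level per length (7083 per kb of exon in DMSO), had 27567, 25142 and 24279 in DMSO and 32079, 31833 and 32488 in THZ531. Its groups did not overlap, with a log2 difference of 0.33 ± 0.04 (SE) that became -0.17 with RPL34 scaling.

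EIF5B, the GTPase that joins the large subunit, differed by 0.57 ± 0.03 on the log2 scale (1.48-fold, just under the threshold for regulated), and by 0.07 with RPL34 scaling (adjusted p = 0.449). EIF1AX, which works with EIF1 in scanning, differed by 0.32 and by -0.18 with RPL34 scaling. EIF1AD, a nuclear protein related to eIF1A in sequence, fell by 0.34. EIF1 and EIF1B can share reads because of their similarity, and the span of EIF1 in the file is 41020 bases, against 3784 for the canonical transcript, and overlaps HAP1 on the other strand.

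All 5 genes of eIF2B, the exchange factor that is the target of the integrated stress response, lay below 0 under the deposited scaling. Of these, 3 passed an adjusted p of at most 0.05, against 34.1% of all loci lower by that rule and 28.0% of the abundant ones. EIF2B4 encodes the delta subunit, and its values were 2397, 2537 and 2421 in DMSO and 1334, 1449 and 1473 in THZ531. No values of the groups overlapped. EIF2B4 fell 1.73-fold (log2 -0.79 ± 0.06, SE; limma, adjusted p = 4.2e-09). EIF2B5, the catalytic epsilon subunit, had a log2 difference of -0.42 ± 0.05 (SE) under the deposited scaling, and it was regulated with the same total (-0.66) and with RPL34 (-0.91). EIF2B1, the alpha subunit, had the highest level per length of this group, 1287 per kb of exon. It had 4582, 4476 and 4950 in DMSO and 4262, 4262 and 4044 in THZ531, a small step (log2 -0.16 ± 0.05, SE; limma, adjusted p = 0.00807) that nonetheless separated the groups. EIF2B2 (-0.08) and EIF2B3 (-0.08) did not pass (adjusted p = 0.156 and 0.155, limma).

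The span of EIF2B5 in the file is chr3:184134433-184684758 and covers other genes on the same strand, EIF4G1 among them. Reads in a stretch annotated to both genes could not be told apart. The values of EIF2B5 and EIF4G1 went in opposite directions under the deposited scaling and in the same direction with RPL34 scaling, where EIF4G1 was at -0.02.

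The genes of eIF2 itself, and of the factors that deliver the initiator tRNA by other routes, showed smaller differences, and none was regulated. EIF2S3, the GTP-binding gamma subunit, had the highest level per length, 5393 per kb of exon in DMSO. Its values were 22877, 21413 and 21739 in DMSO and 25220, 24760 and 24663 in THZ531, without overlap (log2 0.18 ± 0.03, SE; -0.32 with RPL34 scaling). EIF2A, an alternative carrier of initiator tRNA that is no subunit of eIF2, differed most, with 12019, 12104 and 12410 in DMSO and 17468, 17310 and 17162 in THZ531. Its log2 difference was 0.51 ± 0.03 (SE; 1.42-fold; limma, adjusted p = 1.4e-09), and 0.01 with RPL34 scaling. EIF2S1, the alpha subunit phosphorylated under stress, differed by 0.14, and EIF2D, a factor of re-initiation, by 0.22, and both were below 0 with the same total and with RPL34. EIF2S2 (-0.05, adjusted p = 0.276, limma) and EIF2S3B (0.03, adjusted p = 0.588, limma) did not pass. EIF2S3B is an intronless copy of EIF2S3, and reads of the pair can be split between them.

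The 14 genes of eIF3 went the same way under the deposited scaling, where all 14 passed an adjusted p of at most 0.05 as higher (34.6% of all loci, 55.1% of the abundant ones), while 8 lay above 0 with the same total and 2 with RPL34. Their median exceeded that of all loci by 0.30, with all 14 above it, and that of the abundant loci by 0.11, with 10 above it and EIF3G, EIF3M, EIF3J and EIF3K below. EIF3A, the largest subunit and part of the core that holds the complex together, had 11165, 10506 and 11206 in DMSO and 16944, 16738 and 16554 in THZ531. That was 1.53-fold (log2 0.61 ± 0.04, SE; limma, adjusted p = 4.6e-10), and the difference shrank to 0.37 when totals were made equal and to 0.12 with RPL34 (adjusted p = 0.205). Without DMSO replicate 2 it was 0.58, just under the threshold for regulated.

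EIF3B, another subunit of that core, differed by 0.51 on the log2 scale, EIF3H by 0.47, EIF3E by 0.39, EIF3F by 0.39 and EIF3I by 0.38, and of these 5 only EIF3B was above 0 with RPL34 scaling. EIF3L (0.29), EIF3C (0.29), EIF3CL (0.21) and EIF3D (0.18), the subunit that can bind caps, came next. The lowest were EIF3G (0.16), EIF3M (0.14), EIF3J (0.13) and EIF3K (0.12), all below 0 with the same total and with RPL34. EIF3K, a small subunit at the edge of the complex, had the highest level per length of the 14, 8605 per kb of exon in DMSO. Its values were 24378, 24354 and 23500 in DMSO and 25827, 26009 and 26792 in THZ531, so the groups did not overlap even at this small difference. EIF3C and EIF3CL are near-identical copies, and their separate values are uncertain. EIF3J was the only eIF3 gene whose groups overlapped.

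EIF3J-DT, a noncoding gene that starts beside EIF3J and runs the other way, was the member with the largest fall. It had 604.2, 635.6 and 689.4 in DMSO and 260.7, 314.9 and 339.0 in THZ531, with no overlap. The log2 difference was -1.08 ± 0.11 (SE), a 2.11-fold fall (limma, adjusted p = 2.8e-07). In the file EIF3J-DT, on the minus strand, begins at 44536923 and EIF3J, on the plus strand, at 44537118 of chromosome 15, which leaves 194 bases between them. Of these, 89 bases lie outside every exon annotated in GENCODE v44 (chr15:44536934-44537022), and they are shown because both genes start beside them. The sequence is that of the RefSeq promoter table (GRCh38.p14), plus strand, 5′ to 3′, with the GC box GGGCGG, here in its reverse complement, in capitals at 3 places.
EIF3J-DT to EIF3J: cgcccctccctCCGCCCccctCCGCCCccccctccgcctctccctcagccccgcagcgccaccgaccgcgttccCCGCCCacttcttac

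EIF3J, which shares this stretch, had 12896, 13959 and 14298 in DMSO and 16206, 14184 and 14781 in THZ531. Here the groups overlapped, since THZ531 replicate 2 lay below DMSO replicate 3 (log2 0.13 ± 0.05, SE; limma, adjusted p = 0.0240; -0.36 with RPL34 scaling).

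The helicase eIF4A and its cofactors were higher in THZ531 under the deposited scaling for 4 of 5 genes, of which 1 was above 0 with RPL34. These 4 passed an adjusted p of at most 0.05 (limma) as higher, against 34.6% of all loci and 55.1% of the abundant ones. EIF4A1, the main helicase of eIF4F, had the highest level per length (10036 per kb of exon in DMSO) and the largest difference of the group. Its values were 54497, 50727 and 51304 in DMSO and 74407, 72708 and 75782 in THZ531. The log2 difference was 0.51 ± 0.03 (SE; 1.42-fold; limma, adjusted p = 2.3e-09), and 0.02 with RPL34 scaling. EIF4A2, its close paralog, did not pass, with 19798, 19882 and 19909 in DMSO and 19843, 19882 and 19557 in THZ531 (log2 -0.01 ± 0.03, SE; adjusted p = 0.843, limma). The 2 groups of EIF4A2 overlapped almost fully. EIF4A3, the helicase of the exon junction complex, differed by 0.47, EIF4H by 0.47 and EIF4B by 0.16, the last 2 being cofactors of eIF4A, and these 3 were below 0 with RPL34 scaling.

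EIF5A, whose product carries the amino acid hypusine and helps the ribosome through difficult peptide bonds, was on the threshold. It had 41315, 41730 and 39323 in DMSO and 61539, 61377 and 60662 in THZ531, and the groups lay far apart. The log2 difference was 0.59 ± 0.03 (SE; limma, adjusted p = 2.3e-10), with 15192 per kb of exon in DMSO, the highest level per length of its group. EIF5A lost the call, at 0.56 to 0.58, without DMSO replicate 3, without THZ531 replicate 1 or without THZ531 replicate 2, and it lost it at 0.56 with the upper quartile and with edgeR. With RPL34 scaling the difference was 0.09 (adjusted p = 0.338). EIF5A2, the scarcer paralog, differed by 0.57 ± 0.08 (SE), was regulated without DMSO replicate 3 (0.59) or without THZ531 replicate 3 (0.63), and was at 0.08 with RPL34. EIF6, which keeps the large subunit apart from the small one, differed by 0.17, and by -0.08 and -0.33 with the same total and RPL34.

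Ratios between members within a library do not depend on its scaling, and 10 pairs were compared with exact two-sided permutation tests. With 3 against 3 libraries these tests cannot give a p below 0.1, which becomes 0.25 after adjustment over the 10 pairs. The ratio of EIF4G1 to EIF4G3 was 54.5, 55.7 and 51.8 in DMSO and 157.9, 156.1 and 141.9 in THZ531, with means 2.81-fold apart (exact permutation p = 0.1). EIF1 to EIF1B went from 11.2, 9.89 and 8.997 to 18.5, 20.6 and 19.9 (1.97-fold, exact permutation p = 0.1). EIF3J to EIF3J-DT went from 21.3, 22.0 and 20.7 to 62.2, 45.0 and 43.6 (2.35-fold, exact permutation p = 0.1). EIF4A1 to EIF4A2 went from 2.75, 2.55 and 2.58 to 3.75, 3.66 and 3.87 (1.43-fold, exact permutation p = 0.1). In these 4 pairs no DMSO library overlapped a THZ531 library. Taken singly, 71.7% of all loci and 84.4% of the abundant ones did not overlap under the deposited scaling. The ratios were added after the values were seen, and ratios of other gene pairs were not computed.

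The other 6 pairs overlapped between treatments. EIF4G1 to EIF4G2 was 1.32 ± 0.04 in DMSO and 1.32 ± 0.003 in THZ531 (SD, n = 3; exact permutation p = 0.8), and EIF5A to EIF5A2 was 73.3 ± 4.2 and 73.9 ± 4.3 (SD, n = 3; exact permutation p = 1.0). EIF4E to EIF4E2, EIF4E to EIF4E3, EIF3C to EIF3CL and EIF2S3 to EIF2S3B differed by 1.06 to 1.203-fold (exact permutation p between 0.2 and 0.3). A p of this size in 3 against 3 libraries does not show that the ratios are equal.

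**Figure D4:**
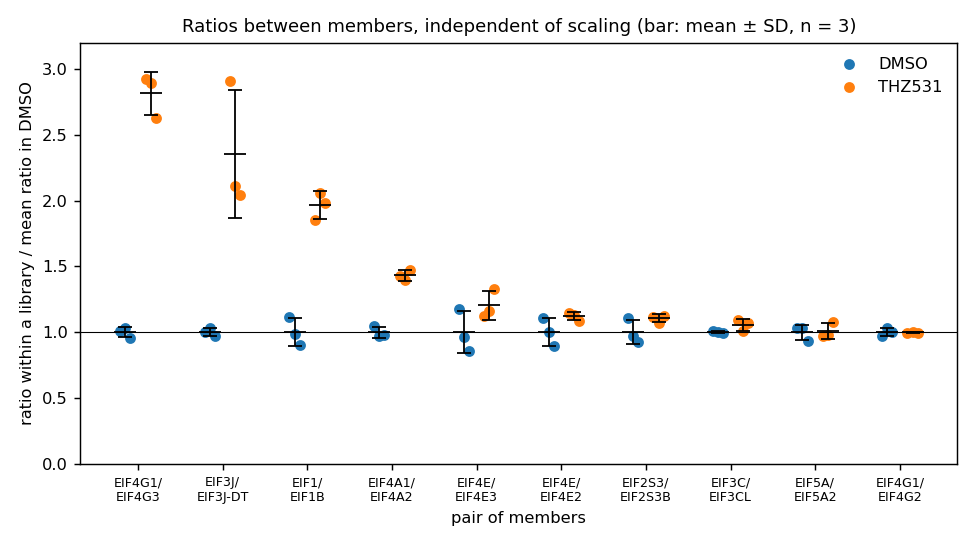
Ratio of 2 initiation factor genes within each library, divided by the mean ratio of the DMSO libraries, for 10 pairs; points are libraries (blue DMSO, orange THZ531) and bars the mean and SD, n = 3. EIF4G1/EIF4G3, EIF3J/EIF3J-DT, EIF1/EIF1B and EIF4A1/EIF4A2 separate the treatments at 2.81, 2.35, 1.97 and 1.43-fold, and the other 6 pairs overlap. Ratios of other gene pairs were not computed.

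The initiation factor genes together took 1.47% ± 0.015 of the reads counted on loci in DMSO and 1.58% ± 0.005 in THZ531 (SD, n = 3; exact permutation p = 0.1, the smallest possible). Abundant genes weigh most in this share, and EIF4G1 (mean value 115108 in DMSO and 160333 in THZ531) and EIF4G2 (87255 and 121802) had the highest values. With all libraries set to the same total, 20 members lay above 0 and 27 below, with a median of -0.07. EIF4G3, in the cap-binding and scaffold group, fell 2.02-fold under the deposited scaling. The share of the eIF2B genes went from 0.0311% to 0.0218%, a ratio of 0.70, with no overlap between the groups. The shares of the cap-binding and scaffold genes and of EIF5A, EIF5A2 and EIF6 in THZ531 were 1.16 and 1.19 times those in DMSO, that of eIF3 was 1.05 times, and those of the eIF2 group and of the start codon group were 0.97 and 0.96 of the DMSO share. None of these role shares overlapped between the treatments (exact permutation p = 0.1 for each, the smallest possible). As single loci under the deposited scaling, 71.7% of all loci and 84.4% of the abundant ones did not overlap either. Shares of other groups of genes were not computed.

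**Figure D5:**
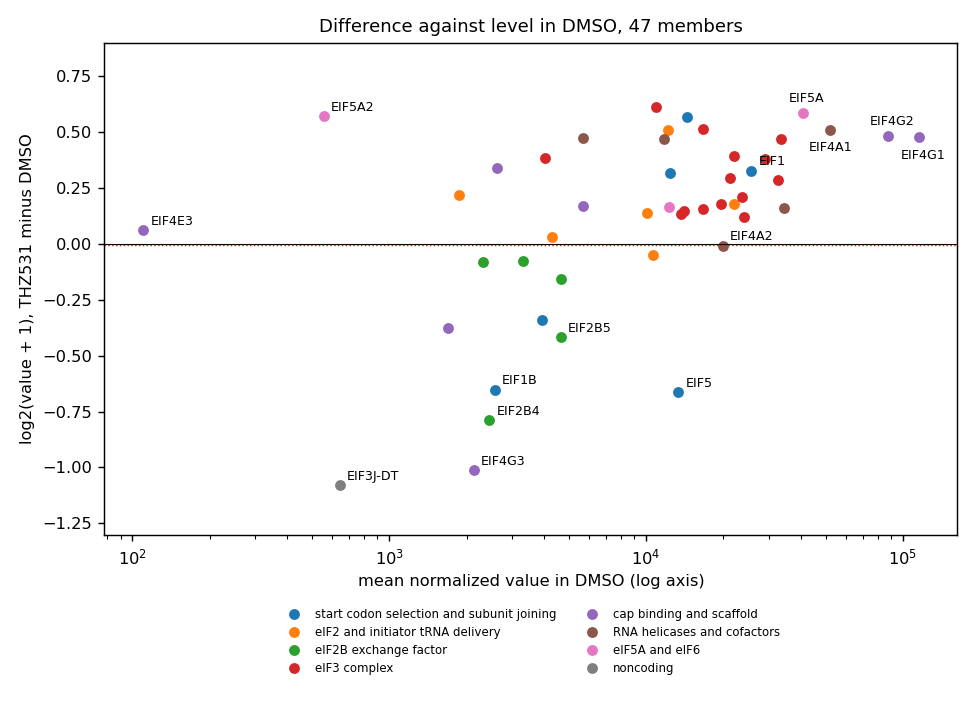
Log2 difference (THZ531 minus DMSO, log2(value + 1), deposited scaling) against the mean normalized value in DMSO on a log axis, for the 47 initiation factor genes coloured by role. The scaffold and helicase genes with high values (EIF4G1, EIF4G2, EIF4A1) lie near 0.5 and their scarcer relatives EIF4G3 and EIF4A2 at -1.01 and -0.01, while EIF5A2 is scarce and lies at 0.57; scaling to RPL34 lowers every point by 0.49 and puts 40 of them below 0.

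Abundant members tended to lie higher than scarce ones. Spearman's rho between the log2 difference and the mean value in DMSO was 0.47 across the 46 protein-coding members and 0.22 across all 13456 protein-coding loci. Among loci with a mean of at least 1000 it was 0.55 for 44 members and 0.036 for 6674 loci. The DMSO libraries enter both axes, so these values are a description.

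Promoter sequence was available for 40 of the 47 members in the RefSeq table of promoters (GRCh38.p14), while EIF2S2, EIF3A, EIF3CL, EIF3E, EIF3G, EIF3H and EIF3L had no entry. In the 250 bases before a start site, on either strand, the E box CACGTG, the letters bound by MYC and related factors, was found in 10 of 40 members (25.0%), against 7.73% of 27305 genes. These were EIF1B, EIF2B3, EIF3F, EIF3K, EIF4A3, EIF4B, EIF4E, EIF4G1, EIF4H and EIF5A2. The 27305 genes are all those with promoter sequence, whether expressed in OVCAR3 or not, whereas the members tested are expressed. Shares among expressed or abundant genes were not computed. The members have 1.43 windows per gene and all genes 1.29, because genes with several start sites have several. The GC box GGGCGG was in 30 of 40 members and in 46.2% of all genes, CCGGAA in 16 of 40 and 17.2%, CCAAT in 17 of 40 and 37.0%, and TATAAA in 1 of 40 (EIF4A2) and 13.0%. None of these motifs contains another, and a match is a description of the letters and not of a bound factor.

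The following stretches lie upstream of the first start site in the RefSeq promoter table and outside every exon annotated in GENCODE v44. They are printed for 2 members of eIF4F with an E box, EIF4G1 (chr3:184314356-184314494, plus strand) and EIF4E (chr4:98929134-98929383, minus strand). Printed as well are 2 regulated as lower without one, EIF2B4 (chr2:27370339-27370495, minus strand) and EIF5 (chr14:103333987-103334188, plus strand). Such stretches of EIF1 and EIF5B also held no CACGTG and are not printed. Both genes were higher in THZ531 under the deposited scaling (log2 0.33 and 0.57), so the printed choice is no sample of motif and direction. The spans listed for the tested loci of EIF4E and EIF5 start further upstream and cover their printed stretches whole, and that of EIF2B4 covers a part. The stretches are RefSeq sequences of GRCh38.p14, written 5′ to 3′ along each gene, with CACGTG in capitals.
EIF4G1: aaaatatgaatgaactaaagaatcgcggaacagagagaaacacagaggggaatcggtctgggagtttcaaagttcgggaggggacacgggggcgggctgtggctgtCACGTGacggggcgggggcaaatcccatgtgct
EIF4E: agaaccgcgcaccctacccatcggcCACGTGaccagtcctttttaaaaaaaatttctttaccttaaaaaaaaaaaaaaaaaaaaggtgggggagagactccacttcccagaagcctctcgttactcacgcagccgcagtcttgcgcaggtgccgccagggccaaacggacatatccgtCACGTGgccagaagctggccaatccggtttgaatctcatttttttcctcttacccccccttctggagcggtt
EIF2B4: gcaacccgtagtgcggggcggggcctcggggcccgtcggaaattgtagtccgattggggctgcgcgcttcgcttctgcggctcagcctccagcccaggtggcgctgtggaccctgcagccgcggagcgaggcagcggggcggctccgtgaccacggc
EIF5: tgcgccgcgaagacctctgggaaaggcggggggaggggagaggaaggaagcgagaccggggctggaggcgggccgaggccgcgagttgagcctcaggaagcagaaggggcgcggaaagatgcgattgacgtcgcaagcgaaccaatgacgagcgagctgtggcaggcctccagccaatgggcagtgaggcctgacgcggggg

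Of the 10 members with an E box, 8 passed as higher and 1, EIF1B, as lower under the deposited scaling, and of the 30 without one 18 passed as higher and 8 as lower (limma, adjusted p of at most 0.05; all loci 34.6% and 34.1%, abundant loci 55.1% and 28.0%). With RPL34 scaling none passed as higher in either set, and 4 of the 10 and 20 of the 30 passed as lower. The median log2 difference was 0.36 with an E box and 0.16 without one, and the ranges overlapped (-0.65 to 0.57 and -1.08 to 0.59). EIF1B, with an E box, was among the 5 members regulated as lower, and its promoter window left no stretch outside annotated exons to print. Whether the motif bears on the direction was not tested.

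Genes that work beside the initiation factors were taken as a list of 50, all of which passed the minimum. Of these, 9 were regulated (18.0%), 3 higher and 6 lower under the deposited scaling, against 39.5% of all loci and 25.5% of the abundant ones. At an adjusted p of at most 0.05 (limma) 32 were higher, 10 lower and 8 did not pass, so that 84.0% were called, against 68.6% of all loci and 83.1% of the abundant ones. Their median log2 difference was 0.22, against -0.01 for all loci and 0.18 for the abundant loci. With the same total none was regulated as higher and 8 were lower, and with RPL34 none was higher and 11 were lower. Of all loci, 41.3% were regulated with the same total and 49.0% with RPL34.

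Among the 12 regulators of eIF4E and eIF4F, 6 passed as higher and 4 as lower under the deposited scaling, and none as higher and 9 as lower with RPL34 scaling. Among the 6 eIF2 kinases and phosphatase subunits, 1 passed as higher and 3 as lower under the deposited scaling, and 0 as higher and 5 as lower with RPL34 scaling. Of all loci, 34.6% passed as higher and 34.1% as lower under the deposited scaling, and of the abundant ones 55.1% and 28.0%. With RPL34 scaling 67.9% of all loci passed in either direction. The 6 genes of the list that were regulated as lower follow. EIF2AK4, also known as GCN2, the kinase that phosphorylates eIF2 when amino acids are short, had 4597, 4287 and 4175 in DMSO and 1830, 1863 and 1755 in THZ531. It fell 2.397-fold (log2 -1.26 ± 0.05, SE; limma, adjusted p = 6.2e-12), while none of the other eIF2 kinases was regulated under the deposited scaling. There EIF2AK2 passed as lower (log2 -0.15; limma, adjusted p = 0.0145) and EIF2AK3 as higher (0.43; limma, adjusted p = 0.000119), and EIF2AK1 did not pass (-0.02). With RPL34 scaling 3 of the 6 eIF2 kinases and phosphatase subunits were regulated (49.0% of all loci), against 1 under the deposited scaling (39.5%). MKNK1, a kinase of eIF4E, had 869.3, 795.2 and 843.4 in DMSO and 348.9, 336.5 and 375.4 in THZ531, a 2.36-fold fall (limma, adjusted p = 3.6e-09). PAIP2B, a protein that takes poly(A)-binding protein away from eIF4G, fell 2.25-fold, from 240.6, 237.5 and 234.6 to 73.0, 130.7 and 112.6 (limma, adjusted p = 4.6e-05). GIGYF2, a partner of EIF4E2 in repression, differed by -0.90, and the inhibitors of eIF4E EIF4EBP3 and EIF4EBP2 by -0.72 and -0.62 (limma, adjusted p = 0.0208 for EIF4EBP3). EIF4EBP3 was scarce (mean 103.4 in DMSO and 63.4 in THZ531). Its groups overlapped, since THZ531 replicate 1 (85.6) lay above DMSO replicate 2 (83.5). Their relative EIF4EBP1 was not regulated and went the other way under the deposited scaling, without overlap (log2 0.19, limma, adjusted p = 0.000279). That difference is smaller than the downward steps of the same total and RPL34 scalings (-0.24 and -0.49).

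On the higher side stood PAIP1, which ties poly(A)-binding protein to eIF4A, METAP1, which removes the initiator methionine, and BZW2, an eIF5 mimic. PAIP1 had 4348, 4014 and 4041 in DMSO and 7063, 7175 and 6928 in THZ531 (log2 0.77 ± 0.04, SE; limma, adjusted p = 2.2e-10). METAP1 differed by 0.74 and BZW2 by 0.61, and none of these 3 was regulated with the same total or with RPL34. The elongation factors passed as higher for 7 of 8 genes and the release and rescue factors for 3 of 5 under the deposited scaling (34.6% of all loci, 55.1% of the abundant ones), with no gene of either group regulated, and all 8 and all 5 lay below 0 with RPL34 scaling. PELO, 1 of these 3 release and rescue factors, was counted as 1 locus with ITGA1, so its difference cannot be assigned to PELO alone. Of the 2 mitochondrial initiation factors, both had a log2 difference below 0 and 1 passed as lower (34.1% of all loci, 28.0% of the abundant ones).

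Between and inside the initiation factor genes, the file lists 39 pairs of a member and another tested locus that overlap, in 23 of the 47 members, and 5 members overlap a locus on their own strand. Of the loci without a symbol, 2 lay wholly inside a member and passed the minimum, 1 of them on the strand of its host. This locus lies inside the span of EIF2B5 (chr3:184197550-184199402), where other genes lie as well, and it was higher in THZ531 (141.6 in DMSO and 244.2 in THZ531, log2 0.83; limma, adjusted p = 0.00356), while with RPL34 scaling or without DMSO replicate 3 it was not regulated. The strand of such loci was read from the order of the identifiers, which was right for 98.4% of 23876 loci with a known strand.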

How the data were processed

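OVCAR3 polyA plus RNA from 3 DMSO and 3 THZ531 cultures (titled rep 1 to 3 in each group) was analysed. Alignment to hg38 was done by the authors with STAR (2.7.5a in the submitters' processing notes), who counted them on FAST DB genes with featureCounts, and normalized counts with DESeq2. The deposited signal is therefore read counts divided by 1 size factor per library, not corrected for length. In each library 100% of values were whole multiples (tolerance 0.01) of 1 step, so whole reads were recovered. Whether counting used strand is not given in the sources used here.

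The values were tested as log2(value + 1) with limma 3.58.1 (trended variance, R 4.3.3), without covariates, over the 17568 loci that reached 10 in 3 or more libraries, and p was adjusted over all of them. The recovered reads, tested by quasi-likelihood in edgeR 4.0.16 and by DESeq2 1.42.0, gave 6 and 7 regulated members, and 2582 and 2680 loci regulated as higher and 4281 and 4108 as lower. On simulated counts of 17010 genes limma recovered 195 of 200 changed by 1 on the log2 scale and made 68 false calls, edgeR 194 with 67 and DESeq2 192 with 14. Only these 200 changed, equally in both directions and at 1 fixed dispersion. In the data 39.5% of all loci were regulated, so the simulation does not give the rate of false calls there. Levels per length used merged GENCODE v44 exons. Named were all members, with every library's value for the regulated ones and for those with the highest level per length or the largest difference in a role. The numbers of the replicates showed no pairing of the samples (correlations of same-numbered deviations between -0.04 and 0.02). Such small correlations cannot exclude that same-numbered cultures were handled together. The members and lists were chosen with earlier results of these data known. Alternatives were pseudocounts of 0.1 and 10, no minimum and a minimum of 50, 3 other scalings, a replicate block, limma without a trend, an adjusted p, a fold of 2 and leaving out each library. The within-library ratios, read shares and the background of loci above 1000 were added after the values were seen. Permutation tests used scipy 1.17.1. P-values measure the spread between these cultures.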

Additional observations from a re-analysis of the deposited data

How the results depend on the processing

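The 5 members regulated as lower were regulated as lower under every alternative except a fold of at least 2, where 2 were lower (EIF3J-DT and EIF4G3) and 0 higher, so that 2 members in all and 3 of the other translation genes were past the threshold, with 0 unnamed loci. The count regulated as higher was 2, and it was 1 with the upper quartile and 1 with edgeR, and 0 with the same total and 0 with RPL34, where 9 members were lower and 0 unnamed loci regulated. Of all loci, 41.3% were regulated with the same total and 49.0% with RPL34. The members with an adjusted p of at most 0.05 (limma) numbered 41 and between 28 and 41 under the other settings. The median log2 difference of the members was 0.18, 0.16 with the upper quartile and 0.16 with edgeR, and it turned to -0.065 with the same total and -0.32 with RPL34, because these scalings move all values of a library by 1 factor. The 3 alternative scalings shift every difference downward, so the lower calls could not be lost under them.

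Leaving out each library in turn gave 6 to 8 regulated members, 1 to 3 of them higher and 5 in each case lower, 39 to 41 with an adjusted p of at most 0.05, a median of 0.17 to 0.20, 8 to 10 regulated translation genes and 0 to 1 unnamed loci. Only EIF2S3B (-0.014 to 0.075) and EIF4E3 (-0.016 to 0.16) changed sign, and neither had passed. EIF3A lost its call without DMSO replicate 2 (0.58).

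With the same total, the log2 differences below 0 in place of above were, by gene, EIF2D -0.023, EIF2S1 -0.10, EIF2S3 -0.065, EIF2S3B -0.21, EIF3CL -0.035, EIF3D -0.063, EIF3G -0.085, EIF3J -0.11, EIF3K -0.12, EIF3M -0.098, EIF4E2 -0.073, EIF4E3 -0.18, EIF4B -0.081, EIF6 -0.076. With RPL34 they were EIF1 -0.17, EIF1AX -0.18, EIF2D -0.27, EIF2S1 -0.35, EIF2S3 -0.32, EIF2S3B -0.46, EIF3C -0.21, EIF3CL -0.28, EIF3D -0.31, EIF3E -0.099, EIF3F -0.11, EIF3G -0.34, EIF3H -0.024, EIF3I -0.11, EIF3J -0.36, EIF3K -0.37, EIF3L -0.20, EIF3M -0.35, EIF4E -0.16, EIF4E2 -0.32, EIF4E3 -0.43, EIF4G1 -0.015, EIF4G2 -0.012, EIF4A3 -0.020, EIF4B -0.33, EIF4H -0.026, EIF6 -0.33. The replicate block changed no call of a member (7 regulated, 2 higher and 5 lower, 41 with an adjusted p of at most 0.05, 9 translation genes). Correlations of the deviations lay between -0.04 and 0.03 for all pairings of DMSO with THZ531 libraries, and in 2 of 6 libraries, replicate 2 of each group, the best match was the library of the same number. Depth limits the scarce genes, EIF4E3 above all, whose standard error was 0.19.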

Other observations

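A locus without a symbol that overlaps the start of EIF4A2 by 608 bases on the other strand (chr3:186781781-186784179) was 59.2 in DMSO and 186.0 in THZ531 on the scale of normalized values, a log2 difference of 1.68 (limma, adjusted p = 5.9e-06). It was chosen after its values were seen, and EIF4A2 itself did not pass the test (log2 -0.01). FAM131A, which lies just past the end of EIF4G1 inside the span listed for EIF2B5, went from 1518 to 559.5 (log2 -1.44; limma, adjusted p = 1.8e-10), while EIF4G1 was higher in THZ531 under the deposited scaling and at -0.02 with RPL34. P2RY11 and PPAN, joined in 1 row of the file and overlapping the end of EIF3G on the other strand by 1316 bases, went from 3479 to 1077 (log2 -1.69; limma, adjusted p = 8.2e-12), while EIF3G differed by 0.16, and by -0.34 with RPL34. MLH3, which overlaps EIF2B2 on the other strand by 7383 bases, went from 347.5 to 129.1 (log2 -1.42; limma, adjusted p = 1.4e-07), while EIF2B2 did not pass (-0.08). These 4 neighbours were picked by their values, and whether reads are shared between them and the initiation factor genes was not tested.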
